A study of Homo sapiens with 8 samples.

Results

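The MYC, MAX and MXD network comprised 10 genes: MYC, MYCN, MYCL, MAX, MXD1, MXD3, MXD4, MXI1, MNT and MLX. They were taken by gene symbol from a table of 60282 genes, and every symbol was found. Of these, 9 passed the filter on low counts and were tested. MYCN, with 7 or fewer estimated counts in every library, was not. RNA had been sequenced from SK-UT-1, an established human cell line derived from a uterine leiomyosarcoma, a malignant tumor of uterine smooth muscle. Cells received either DMSO as the vehicle (4 libraries) or TP-472 at 5 µM for 48 h (4 libraries). TP-472 is a small molecule that inhibits BRD9, a bromodomain protein that reads acetylated histones. Total estimated counts ran from 32574716 to 36634184 in the vehicle libraries and from 36246466 to 38545695 in the TP-472 libraries.

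MYC proteins bind DNA as dimers with MAX, mostly at E-boxes, and recruit coactivators that raise transcription of genes for ribosome production, nucleotide synthesis and cell cycle entry. The MXD proteins, MXI1 and MNT also pair with MAX at E-boxes but bring SIN3 and histone deacetylase corepressors, so both arms compete for MAX and for the same DNA. MLX is a MAX-like partner that pairs with some MXD proteins and MNT, and with MLXIP and MLXIPL, which respond to glucose metabolites.

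Vehicle replicate 3 stood apart from the other libraries. Its median Spearman correlation with the vehicle group was 0.914, against 0.988 to 0.989 for vehicle replicates 1, 2 and 4. The GC content of its RNA, weighted by counts, was 52.3%, against 49.7% to 50.2% in the other vehicle libraries. Relative to those libraries, genes in the lowest of 5 equal bins of GC content sat at a median of −0.74 on the log2 scale in this library, and genes in the highest bin at 0.99. Tests were therefore run with all 8 libraries and with the 7 libraries that remain without vehicle replicate 3, and values not said to leave it out come from all 8. The study's methods speak of biological replicates for its experiments in general, and the sample labels did not say whether these libraries came from separate cultures. The p-values measure the spread between these libraries, part of which may be technical.

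Of the network genes tested, MNT stood 3.16 times as high in vehicle replicate 3 as the mean of the other vehicle libraries, MYC 2.25 times, MXD4 1.90 times and MXD3 1.85 times. These 4 transcripts had GC contents of 57.0% to 62.8%. MYCL, at 58.0% GC, stood at only 1.09 times, and MAX (1.09), MXI1 (1.05) and MLX (0.83) were also close to the other vehicle libraries. MXD1, the transcript of lowest GC content among them (44.5%), stood at 1.34 times.

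**Figure D1:**
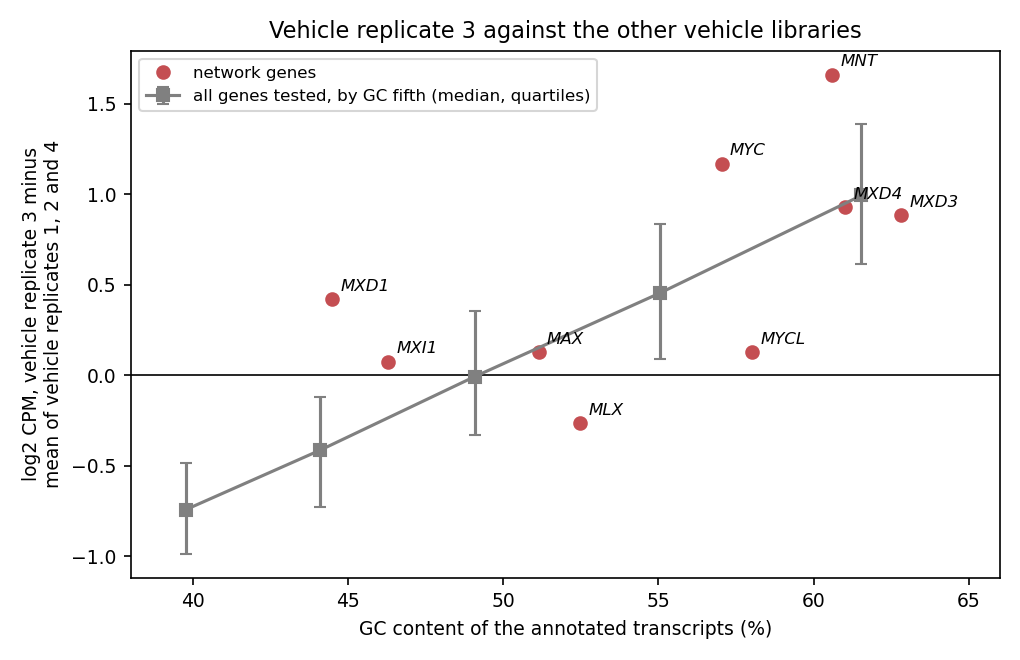
Points show each network gene's log2 CPM in vehicle replicate 3 minus its mean in vehicle replicates 1, 2 and 4, plotted against the GC content of its annotated transcripts. Grey squares and bars are the median and quartiles of all tested genes in each of 5 bins of GC content, and MNT, MYC, MXD1 and MXI1 lie above the line through the squares while MYCL and MLX lie below it.

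To ask which network genes changed with TP-472, differential expression was defined as an adjusted p-value under 0.05 in the edgeR quasi-likelihood test together with a change of more than 1.5-fold. With all 8 libraries, MXD3 and MXD4 were lower in TP-472 and no network gene was higher. Among all 14073 genes tested, 14.9% were lower and 12% were higher by the same rule. In the 7 libraries, MXD3 was lower and MYC was higher, against 13.1% lower and 12% higher among 13879 genes. The number of differentially expressed network genes was therefore 2 of 9 in both fits (background 26.9% and 25%), and MXD3 was the gene they shared.

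**Figure D2:**
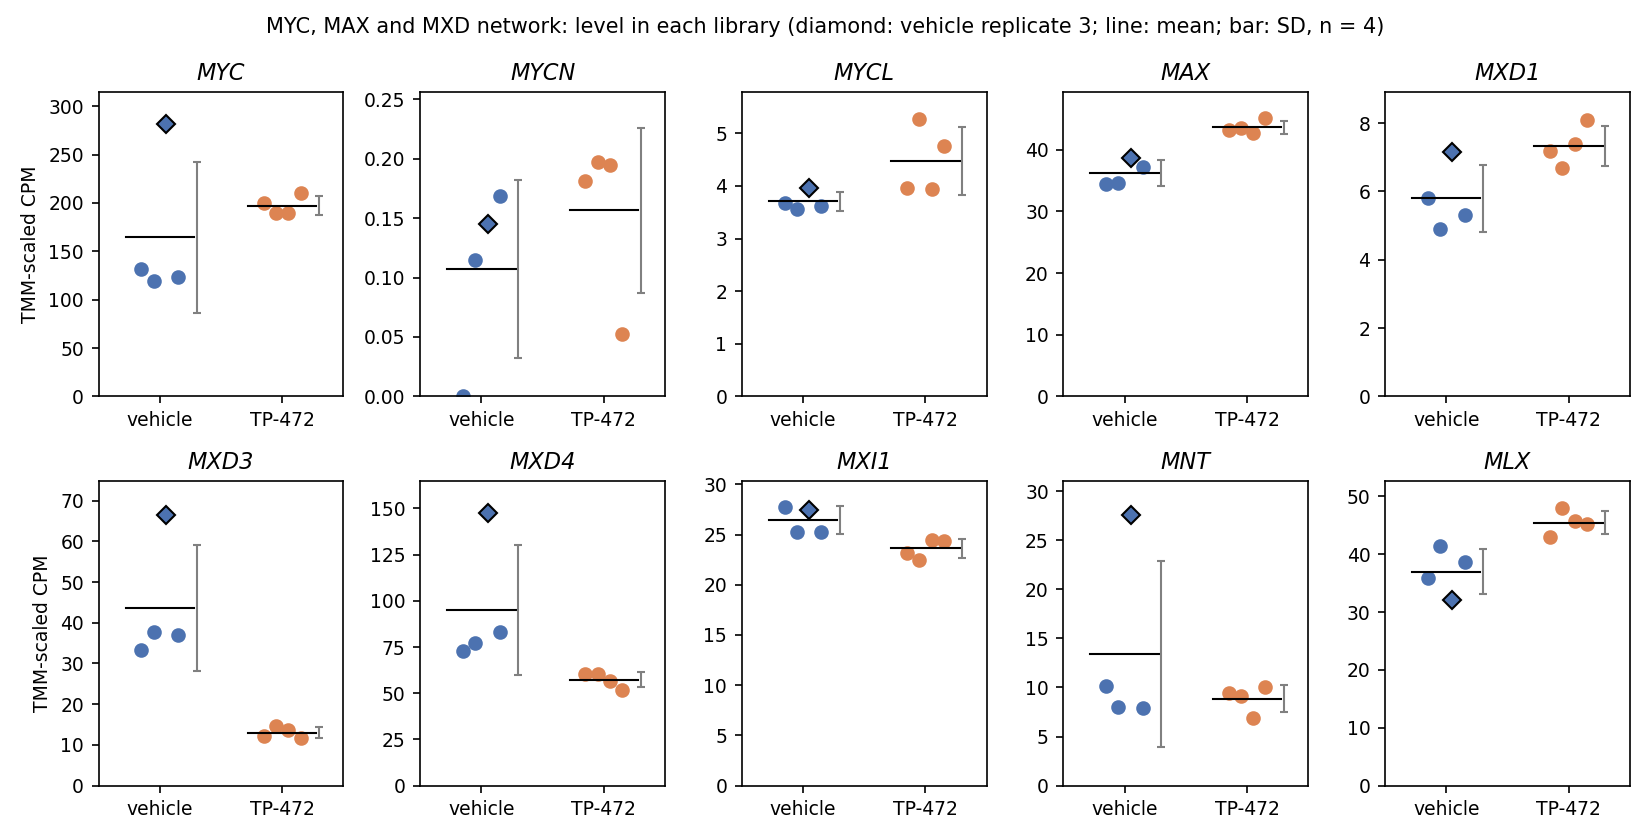
Each panel plots the TMM-scaled CPM (read counts made comparable between libraries of different size) of 1 network gene in the 4 vehicle and 4 TP-472 libraries, with the mean and SD of each group. The diamond is vehicle replicate 3, which lies far above the other vehicle points for MYC, MXD3, MXD4 and MNT.

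MXD3 encodes an E-box repressor of the MXD family and lies on chromosome 5 at 177301461 to 177312757 on the minus strand (GRCh38). It was measured at 33.2, 37.7, 66.5 and 37.1 CPM in vehicle replicates 1 to 4 and at 12.2, 14.6, 13.7 and 11.7 CPM in TP-472 replicates 1 to 4. The groups did not overlap, since the lowest vehicle library had more than 2 times the MXD3 level of the highest TP-472 library. MXD3 fell by 1.74 on the log2 scale (SE 0.226, adjusted p = 0.000811 in edgeR), which is 3.35-fold lower. In the 7 libraries left without vehicle replicate 3 it fell by 1.47 (SE 0.0923, adjusted p = 3.02e-06), which is 2.77-fold lower. MXD3 remained differentially expressed under all 22 alternatives tried with 8 libraries, where its log2 fold change ran from −1.86 to −1.29. The value nearest to 0 came from removing the GC trend of each library. In bulk RNA, less MXD3 RNA per cell and fewer cells with MXD3 RNA cannot be told apart.

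MXD3 shares annotated bases with RAB24, a small GTPase gene on the same strand (2284 bases), and with PRELID1, which encodes a mitochondrial lipid transfer protein on the opposite strand (3186 bases). Both neighbours were looked up after the change of MXD3 had been seen. RAB24 did not pass the test (log2 fold change −0.15, adjusted p = 0.284 in edgeR) and PRELID1 was higher in TP-472 by 0.74 (adjusted p = 0.00462), so neither moved in the direction and size of MXD3. The share of reads that salmon could assign to either gene of such a pair is not known from the counts.

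MXD4, another MXD-family repressor, lies on chromosome 4 at 2247432 to 2262294 on the minus strand. Its levels were 72.7, 77.5, 148 and 82.9 CPM in the vehicle libraries and 60.4, 60.6, 56.6 and 51.7 CPM in the TP-472 libraries. The groups did not overlap, but the vehicle group spread widely because of replicate 3. MXD4 fell by 0.73 on the log2 scale with all 8 libraries (SE 0.221, adjusted p = 0.0307 in edgeR), and by 0.44 without vehicle replicate 3 (SE 0.0744, adjusted p = 0.000802), which is under the 1.5-fold limit. It was differentially expressed under 13 of 22 alternatives with 8 libraries and under none of 21 without vehicle replicate 3, although its log2 fold change was negative in each of them. Leaving out any TP-472 library raised its adjusted p above the threshold (0.0684, 0.072, 0.0827 and 0.0842 for replicates 1 to 4) while the log2 fold change stayed near −0.73 (−0.76, −0.75, −0.72 and −0.68), and with the GC trend removed the change was −0.32.

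The promoter windows of these 2 genes are shown because they are the network genes that were lower with all 8 libraries and because E-boxes are the sites that the network binds. Windows are from RefSeq on GRCh38.p14 and run from 250 bases before the annotated start to 50 bases after it, written 5′ to 3′ on the gene's strand, with the E-box CACGTG in capitals where the letters occur. Both lie at 5′ ends of protein-coding genes. The MXD3 window is chr5:177312703-177313002 (minus strand) and the MXD4 window is chr4:2262060-2262359 (minus strand).
MXD3: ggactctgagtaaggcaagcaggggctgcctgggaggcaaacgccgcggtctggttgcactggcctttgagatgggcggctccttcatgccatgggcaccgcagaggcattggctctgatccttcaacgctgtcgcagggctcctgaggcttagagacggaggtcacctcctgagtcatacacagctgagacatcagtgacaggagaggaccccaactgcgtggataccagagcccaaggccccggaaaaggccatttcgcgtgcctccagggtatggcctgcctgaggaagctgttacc
MXD4: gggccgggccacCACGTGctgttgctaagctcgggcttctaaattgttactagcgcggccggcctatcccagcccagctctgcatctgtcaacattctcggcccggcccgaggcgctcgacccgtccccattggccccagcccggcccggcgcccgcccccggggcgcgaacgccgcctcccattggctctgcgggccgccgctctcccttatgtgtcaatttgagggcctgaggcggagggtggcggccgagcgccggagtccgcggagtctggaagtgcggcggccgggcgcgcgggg

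CACGTG, which reads the same on both strands, occurred from −238 to −233 relative to the start in the MXD4 window, and these letters did not occur in the MXD3 window. Of 10 network genes, 9 were matched to 12 windows. The letters were also present from −193 to −188 in MNT and from −50 to −45 in MLX. Of all 35116 promoter windows of this length, 7.26% held the hexamer. A match describes the letters only.

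The remaining repressors did not pass the call in either fit. MXI1 was measured at 27.7, 25.3, 27.5 and 25.3 CPM in vehicle and at 23.2, 22.5, 24.5 and 24.4 CPM in TP-472. The groups did not overlap, yet the difference was small, at −0.16 on the log2 scale (adjusted p = 0.213 in edgeR), and −0.15 without vehicle replicate 3 (adjusted p = 0.0928). MXD1, a repressor associated with differentiation, was at 5.82, 4.89, 7.15 and 5.31 CPM in vehicle and at 7.20, 6.68, 7.38 and 8.08 CPM in TP-472. Vehicle replicate 3 lay within the TP-472 range and the other vehicle libraries lay below it. Its log2 fold change was 0.34 (adjusted p = 0.112) with all libraries and 0.45 (adjusted p = 0.00698, 1.37-fold) without vehicle replicate 3. MXD1 thus had the opposite sign to MXD3, MXD4 and MXI1 in both fits.

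MNT, the most broadly expressed MAX-binding repressor, was at 10.2, 8.05, 27.5 and 7.92 CPM in vehicle and at 9.42, 9.13, 6.85 and 10.01 CPM in TP-472. Apart from vehicle replicate 3, the groups overlapped, and the lowest library was TP-472 replicate 3. Its log2 fold change was −0.60 (SE 0.397, adjusted p = 0.256 in edgeR) with all 8 libraries and 0.02 (SE 0.149, adjusted p = 0.933) without vehicle replicate 3, so the negative value rested on that library.

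Among the activators, MYC, on chromosome 8, had by far the highest level. It was measured at 132, 119, 282 and 124 CPM in vehicle replicates 1 to 4 and at 199.6, 189.8, 189 and 210.4 CPM in TP-472 replicates 1 to 4. The TP-472 libraries lay close together, above vehicle replicates 1, 2 and 4 and below vehicle replicate 3. The vehicle mean was 164 ± 78.4 CPM (SD, n = 4), or 125 ± 6.46 CPM (SD, n = 3) without replicate 3, and the TP-472 mean was 197 ± 9.96 CPM (SD, n = 4). With all 8 libraries MYC did not pass the test (log2 fold change 0.26, SE 0.267, adjusted p = 0.455 in edgeR). Without vehicle replicate 3 it was 1.57-fold higher in TP-472 (log2 fold change 0.65, SE 0.0656, adjusted p = 4.04e-05). An exact two-sided permutation test of the CPM gave p = 0.6 with 8 libraries and p = 0.0571 with 7, the smallest p that 3 against 4 libraries allow. Of 22 alternatives to the 8-library fit, MYC was called under 2, the fit without vehicle replicate 3 and voom with quality weights (0.66, adjusted p = 2.31e-07). Its log2 fold change ran from 0.13 to 0.66 over them, and was 0.55 (adjusted p = 0.00872), under the 1.5-fold limit, with the GC trend removed. Of 21 alternatives to the 7-library fit it was called under 20, the exception being the test against 1.5-fold.

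MYCL, the L-MYC paralog, was at 3.69, 3.56, 3.97 and 3.63 CPM in vehicle and at 3.96, 5.27, 3.94 and 4.76 CPM in TP-472. Vehicle replicate 3 reached the lower TP-472 libraries. The log2 fold change was 0.27 (adjusted p = 0.181 in edgeR), and 0.30 (adjusted p = 0.0955) without vehicle replicate 3. MYCN, the N-MYC paralog, had 0, 4, 5 and 6 estimated counts in vehicle and 7, 7, 7 and 2 in TP-472. These counts overlapped (exact two-sided permutation p = 0.4, and 0.343 without vehicle replicate 3), and any difference was not detectable at this depth.

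MAX, the shared partner of both arms, was at 34.4, 34.7, 38.7 and 37.3 CPM in vehicle and at 43.3, 43.5, 42.8 and 45.2 CPM in TP-472. All TP-472 libraries were above all vehicle libraries, and the spread within each group was small. The difference was 0.27 on the log2 scale (SE 0.0917, adjusted p = 0.0466 in edgeR), or 1.21-fold, and 0.30 (adjusted p = 0.00206) without vehicle replicate 3. It passed the test of the p-value but not the 1.5-fold limit in either fit.

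MLX was at 35.9, 41.3, 32.1 and 38.6 CPM in vehicle and at 43.04, 47.9, 45.8 and 45.2 CPM in TP-472. Again no TP-472 library reached down into the vehicle range. Its log2 fold change was 0.30 (adjusted p = 0.0574 in edgeR) and, without vehicle replicate 3, 0.23 (adjusted p = 0.0163). MAX and MLX were thus each higher by less than 1.5-fold.

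By the adjusted p-value alone, 1 network gene was higher and 2 were lower with all 8 libraries (background 17.2% and 19.1%, together 36.3%). In the fit of 7 libraries 4 were higher and 2 lower (background 28.6% and 28.5%, together 57.1%). In the second set the higher genes were MYC, MAX, MXD1 and MLX and the lower ones MXD3 and MXD4. With all 8 libraries the groups did not overlap for MAX and MLX, which were higher, and for MXD3, MXD4 and MXI1, which were lower (background 23.8% and 21.6%, together 45.4%). When vehicle replicate 3 was left out there was no overlap for any tested member except MNT, with 5 higher and 3 lower (background 30.2% and 28.3%, together 58.5%).

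**Figure D3:**
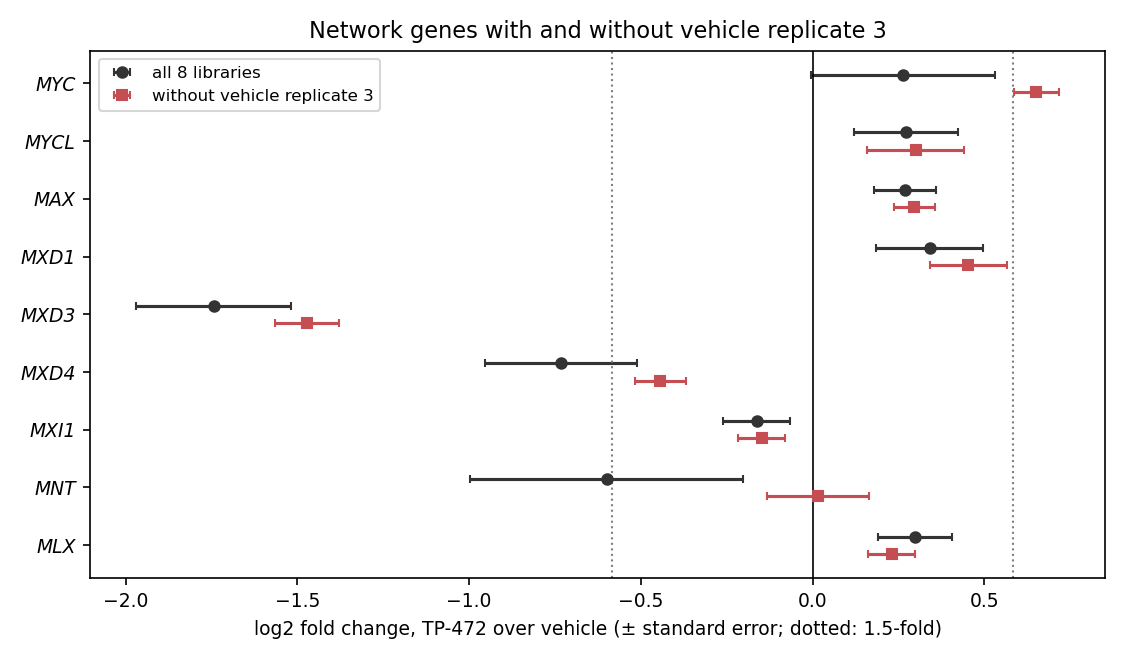
Points are the edgeR log2 fold changes of the 9 tested network genes, TP-472 over vehicle, with standard errors, for all 8 libraries (circles) and without vehicle replicate 3 (squares), and dotted lines mark 1.5-fold. MXD3 lies beyond the dotted line in both fits, while MYC, MXD4 and MNT move most when the library is left out.

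Levels between the genes were compared as CPM per kilobase of annotated exons. In the vehicle libraries the order was MYC (54.7, range 39.8 to 93.8), MXD4 (23.5), MLX (14.3), MXD3 (13.2), MAX (8.84), MXI1 (6.53), MNT (2.69), MXD1 (1.03), MYCL (0.75) and MYCN (0.041). Among neighbours in that order only the ranges of MLX and MXD3 overlapped. Leaving out vehicle replicate 3 kept the order, and those ranges were then apart (13.9 to 15.96 for MLX and 10.1 to 11.4 for MXD3). In the TP-472 libraries MYC again had the highest level (65.7, range 63.1 to 70.1), followed by MLX (17.6), MXD4 (14.1), MAX (10.7), MXI1 (5.83), MXD3 (3.96), MNT (1.77), MXD1 (1.31), MYCL (0.906) and MYCN (0.060). There the ranges of MNT and MXD1 overlapped and those of the other neighbours did not. MXD3 moved from above MAX to below MXI1.

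Because both arms draw on MAX, their summed RNA was set side by side as a description, with no test. The summed level of MYC, MYCN and MYCL was 136, 123, 286 and 128 CPM in vehicle and 204, 195, 193 and 215 CPM in TP-472. The summed level of MXD1, MXD3, MXD4, MXI1 and MNT was 149.7, 153, 276 and 158 CPM in vehicle and 112, 113, 109 and 106 CPM in TP-472. Vehicle replicate 3 had the highest level of both sums, so that their ratio was less affected than either.

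The log2 ratio of the MYC sum to the MXD sum was −0.14, −0.32, 0.05 and −0.31 in vehicle and 0.86, 0.78, 0.83 and 1.02 in TP-472. All TP-472 libraries were above all vehicle libraries, replicate 3 included. The mean rose from −0.18 ± 0.17 to 0.87 ± 0.11 (SD, n = 4 each), a difference of 1.05, or 1.13 without vehicle replicate 3. For MYC against MXD3 alone the mean log2 ratio was 1.87 in vehicle and 3.92 in TP-472. These are ratios of RNA and not of protein.

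Within the repressor sum, MXD3 made up 22.2%, 24.6%, 24.1% and 23.4% in the vehicle libraries and 10.9%, 12.9%, 12.5% and 11.03% in the TP-472 libraries. The share of MXD3 in vehicle replicate 3 lay within that of the other vehicle libraries. MXD4 stayed the largest component (means of 51.2% and 52.0%), and the mean shares of MXI1 (15.2% and 21.5%), MXD1 (3.25% and 6.68%) and MNT (6.76% and 8.05%) were higher in TP-472. Leaving out vehicle replicate 3 gave vehicle means of 23.4% for MXD3, 50.5% for MXD4, 17.0% for MXI1, 3.48% for MXD1 and 5.69% for MNT.

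**Figure D4:**
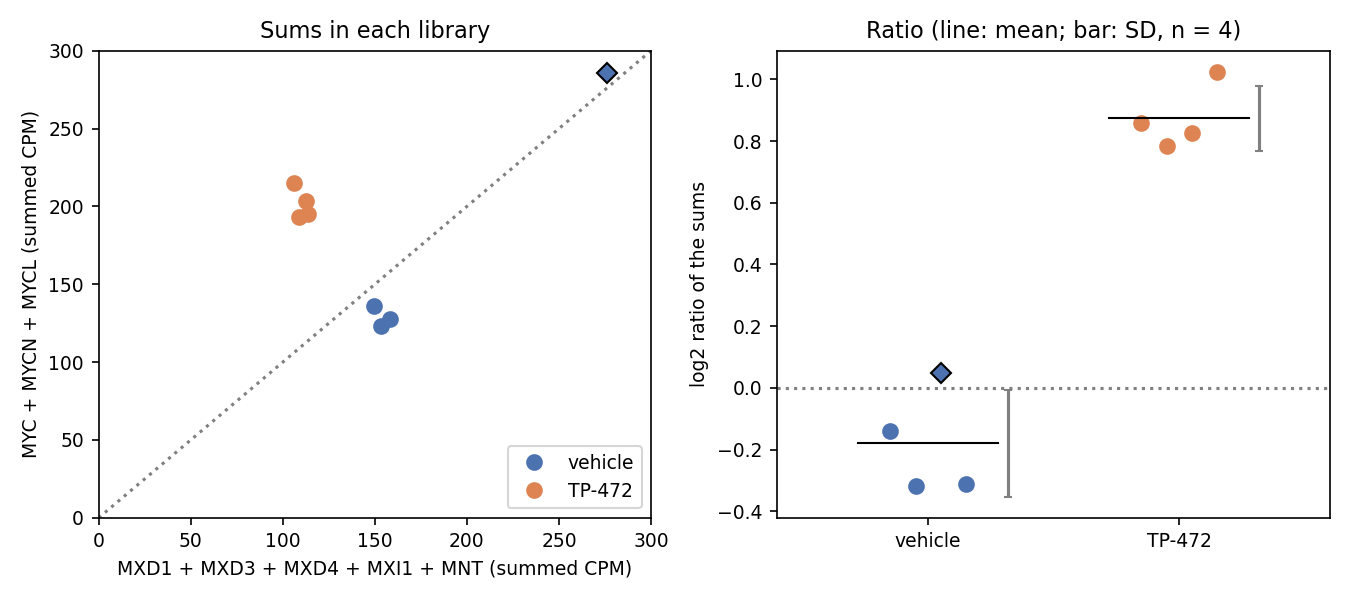
Left, the summed CPM of MYC, MYCN and MYCL against that of MXD1, MXD3, MXD4, MXI1 and MNT in each library, with a dotted line of equal sums and a diamond for vehicle replicate 3. Right, the log2 ratio of the sums per library with group mean and SD (n = 4), in which the TP-472 libraries lie between 0.78 and 1.02 and the vehicle libraries between −0.32 and 0.05.

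Among the genes listed around the network, ARRDC4 had the largest log2 fold change in either direction, in both fits. TXNIP and ARRDC4 encode arrestin-domain proteins that restrain glucose uptake, and both are established targets of MLX with MLXIP. TXNIP was at 68.6, 84.6, 51.8 and 81.4 CPM in vehicle and at 179, 185, 181 and 182 CPM in TP-472, and ARRDC4 was at 4.41, 4.48, 1.68 and 4.75 CPM in vehicle and at 27.6, 28.5, 27.995 and 33.5 CPM in TP-472. For both genes vehicle replicate 3 was the lowest library, and the TP-472 range lay wholly above the vehicle range. TXNIP was 2.54-fold higher (log2 fold change 1.34, adjusted p = 0.000434 in edgeR) and ARRDC4 7.67-fold higher (log2 fold change 2.94, adjusted p = 0.000253). Without vehicle replicate 3 the log2 fold changes were 1.21 and 2.69.

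The promoter windows of both genes are shown because both are established targets of MLX, with letters of interest in capitals. A match again describes the letters only. The ARRDC4 window is chr15:97960453-97960752 (plus strand), with CACGTG from −210 to −205, letters that 7.26% of all windows held. For TXNIP, 1 of 2 windows, chr1:145996530-145996829 (minus strand), held a pair of CACGNG repeats (N, any base) in the same orientation with 5 bases between them, from −88 to −72. This is the arrangement of carbohydrate response elements, and it was searched on both strands. It occurred in 20 of 35116 windows (0.057%), but not in the ARRDC4 window or in any window of the network genes.
ARRDC4: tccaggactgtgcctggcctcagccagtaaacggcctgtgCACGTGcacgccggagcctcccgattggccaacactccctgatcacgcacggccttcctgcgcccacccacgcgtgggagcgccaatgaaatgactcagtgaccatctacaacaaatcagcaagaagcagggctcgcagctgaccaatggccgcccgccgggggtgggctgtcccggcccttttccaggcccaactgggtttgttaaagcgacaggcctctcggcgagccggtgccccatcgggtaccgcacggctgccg
TXNIP: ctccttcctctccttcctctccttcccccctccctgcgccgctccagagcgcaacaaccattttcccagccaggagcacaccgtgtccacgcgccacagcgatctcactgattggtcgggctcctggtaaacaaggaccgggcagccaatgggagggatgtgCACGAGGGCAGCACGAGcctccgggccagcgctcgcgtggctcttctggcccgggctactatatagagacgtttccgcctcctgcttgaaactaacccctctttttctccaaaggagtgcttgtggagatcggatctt

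Neither MLXIP nor MLXIPL was higher in TP-472. MLXIP, which encodes the glucose sensor MondoA, was at 50.1, 24.1, 134 and 25.6 CPM in vehicle and at 28.1, 24.6, 21.9 and 30.04 CPM in TP-472. Vehicle replicates 1 and 3 lay above the TP-472 range and replicates 2 and 4 within it. Its log2 fold change was −1.16 (adjusted p = 0.102 in edgeR) with all libraries and −0.35 (adjusted p = 0.232) without vehicle replicate 3. Of 22 alternatives with 8 libraries MLXIP was called under 2, DESeq2 with every library kept (−1.14, adjusted p = 0.0427) and edgeR without vehicle replicate 2 (−1.43, adjusted p = 0.0437), and of 21 alternatives without vehicle replicate 3 it was called under none.

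MLXIPL, which encodes the related sensor ChREBP, was at 2.16, 1.55, 5.41 and 1.69 CPM in vehicle and at 0.673, 0.648, 0.472 and 0.476 CPM in TP-472. Its TP-472 levels were all under the filter's 1 CPM, so it passed the filter only through the 4 vehicle libraries, and a gene that passes in this way had to differ (log2 fold change −2.24, adjusted p = 0.00494 in edgeR). Without vehicle replicate 3 it was under the filter and had no test. MGA, a large MAX partner with repressive functions, was at 172, 166, 129 and 169.9 CPM in vehicle and at 181, 175, 175 and 204 CPM in TP-472. It did not pass the test (log2 fold change 0.21, adjusted p = 0.202, and 0.11 without vehicle replicate 3).

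Established targets that MYC activates were grouped by function in 5 lists of 65 genes in all, each of which was tested. With all 8 libraries, 30 were higher and 1 was lower, and their median log2 fold change was 0.58, beside −0.03 for all genes tested. In the 7-library fit, 29 were higher and none was lower (median 0.56, beside −1.15e-05 for all genes). Among all genes tested, 12% were higher and 14.9% lower with 8 libraries, and 12% and 13.1% with 7. These lists, like the others below, were chosen with earlier results of these data known. The paper had already reported some of the genes, such as RRP9, NOP56 and CCT2, as higher. The counts therefore describe the listed genes and are no test of MYC activity.

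The list of ribosome biogenesis held most of the genes that rose. Of 21 genes, 16 were higher and none was lower (median 0.83), and without vehicle replicate 3 again 16 were higher (median 0.81), of which 14 were shared. Among all genes tested, 12% were higher in each fit. RRP9, a component of the U3 small nucleolar ribonucleoprotein, was at 21.1, 27.7, 27.97 and 27.0 CPM in vehicle and at 68.7, 78.7, 77.7 and 60.1 CPM in TP-472. It was 2.75-fold higher (log2 fold change 1.46, adjusted p = 0.000188 in edgeR, and 1.49 without vehicle replicate 3) with no overlap. NOP16, a nucleolar factor of large-subunit assembly, was 2.49-fold higher (log2 fold change 1.31, adjusted p = 0.000443, and 1.21 without vehicle replicate 3), with levels of 19.6 to 29.03 CPM in vehicle and 55.2 to 68.1 CPM in TP-472. FBL, WDR12, PPAN, NOLC1 and UBTF were not called with all 8 libraries, and UBTF was the only gene of the list with a negative value (−0.29, adjusted p = 0.26). These 5 were named after their values had been seen.

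Of 14 genes of nucleotide and polyamine synthesis, 3 were higher and 1 was lower (median 0.12), a share near the 26.9% of all genes called, so the count says nothing particular about the list. ODC1, the rate-limiting enzyme of polyamine synthesis, was at 142, 178, 82.5 and 182 CPM in vehicle and at 372, 409, 409 and 373 CPM in TP-472. Its TP-472 libraries were far above all vehicle libraries. ODC1 was higher by 1.42 on the log2 scale (adjusted p = 0.0021 in edgeR), and by 1.22 without vehicle replicate 3. NME1, a nucleoside diphosphate kinase, was higher by 0.82 (adjusted p = 0.0053), and by 0.71 without vehicle replicate 3. CAD, which starts pyrimidine synthesis, fell by 0.63 (adjusted p = 0.0449) with all 8 libraries, but by 0.39, under the 1.5-fold limit, without vehicle replicate 3. The call of CAD was also lost when vehicle replicate 1 or any TP-472 library was left out (−0.66 to −0.59, adjusted p between 0.0806 and 0.117). PPAT, named after its values had been seen, was no longer called without vehicle replicate 3 either, which left 2 higher and none lower.

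Among 12 genes of translation and chaperones, 6 were higher and none was lower (median 0.61), and 4 were higher without vehicle replicate 3 (median 0.52). Of all genes tested, 12% were higher in each fit, and 26.9% and 25% were called in either direction. EEF1E1, a scaffold protein of aminoacyl-tRNA synthetases, was higher by 1.15 on the log2 scale (adjusted p = 0.0162 in edgeR), and CCT2, a subunit of the TRiC chaperonin, by 0.90 (adjusted p = 0.00614). Both were also called without vehicle replicate 3, at 0.90 and 0.75. In each, vehicle replicate 3 was the lowest library (12.5 CPM of EEF1E1 and 198 CPM of CCT2).

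Of 10 genes of glycolysis and glutamine use, 3 were higher with all 8 libraries (median 0.50) and 5 without vehicle replicate 3 (median 0.61), and none was lower. The share with all 8 libraries was near the 26.9% of all genes called, so that count says nothing particular about the list. Without vehicle replicate 3, 25% of all genes were called and 12% were higher. TFAM, a factor of mitochondrial DNA transcription, was at 78.6, 108, 33.96 and 103 CPM in vehicle and at 153, 157, 166 and 155 CPM in TP-472. It was higher by 0.97 on the log2 scale (adjusted p = 0.0348 in edgeR), a call lost when vehicle replicate 1 or any TP-472 library was left out (0.95 to 0.98, adjusted p between 0.072 and 0.0836). Without vehicle replicate 3 TFAM was higher by 0.71 (adjusted p = 0.00033 in edgeR) and was called under 19 of 21 alternatives. The exceptions were the test against 1.5-fold and the fit that also left out vehicle replicate 1 (0.57). LDHA, encoding a lactate dehydrogenase subunit, was higher by 0.91 (adjusted p = 0.00343, and 0.77 without vehicle replicate 3), and the genes gained without vehicle replicate 3 were HK2 (0.68) and SLC2A1 (0.74). LDHA, HK2 and SLC2A1 were named after their values had been seen.

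Of 8 genes of the cell cycle and telomerase, 2 were higher in each fit (medians of 0.17 and 0.26), a share near the 26.9% and 25% of all genes called in the 2 fits. CDC25A, a phosphatase that activates cyclin-dependent kinases, was at 46.0, 51.9, 40.3 and 54.0 CPM in vehicle and at 99.1, 97.9, 96.6 and 95.3 CPM in TP-472. The groups were clearly separate, and the increase on the log2 scale was 1.02 (adjusted p = 0.000386 in edgeR), and 0.94 without vehicle replicate 3. CCNE1, encoding cyclin E1, was higher by 0.65 (adjusted p = 0.00388) and by 0.58, just under the 1.5-fold limit, without vehicle replicate 3. In that fit TERT, named after its value had been seen, took its place at 0.89 (adjusted p = 0.000684), against 0.20 (adjusted p = 0.718) with all 8 libraries.

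Genes known to be repressed by MYC moved in both directions: of 12, 4 were higher and 4 lower (median −0.32), beside 12% and 14.9% of all genes, and 4 were higher and 5 lower without vehicle replicate 3, beside 12% and 13.1%. All 8 calls were shared by both fits, and the gene gained was GAS1 (−0.61), named after its value had been seen. CEBPA, 1 of the 4 higher genes and also named after its values had been seen, was at 0.517 to 0.84 CPM in vehicle. In TP-472 it was at 2.03 to 2.5 CPM. CEBPA passed the filter only through the TP-472 libraries, and a gene that passes in this way had to differ, so its call is not read as a result. CDKN1A, the p21 inhibitor of cyclin-dependent kinases, was at 3.44, 4.48, 4.26 and 3.77 CPM in vehicle and at 19.9, 23.0, 23.1 and 20.7 CPM in TP-472. It was 5.44-fold higher (log2 fold change 2.44, adjusted p = 2.06e-05 in edgeR), and GADD45A, a stress-induced growth arrest gene, was 2.41-fold higher (1.27, adjusted p = 0.000981). These log2 fold changes were 2.47 and 1.46 without vehicle replicate 3.

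The collagen gene COL1A2 was at 626, 516, 680.2 and 535 CPM in vehicle and at 102, 92.2, 103 and 98.3 CPM in TP-472. It fell by 2.58 on the log2 scale (adjusted p = 1.74e-05 in edgeR), and PDGFRB, a receptor of platelet-derived growth factor, fell by 2.33 (adjusted p = 0.000446). Vehicle replicate 3 was the highest library of both, and without it they fell by 2.51 and 2.03. CDKN1B, encoding the p27 inhibitor and named after its value had been seen, fell by 1.53 (adjusted p = 0.000236), and by 1.63 without vehicle replicate 3, opposite to CDKN1A.

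**Figure D5:**
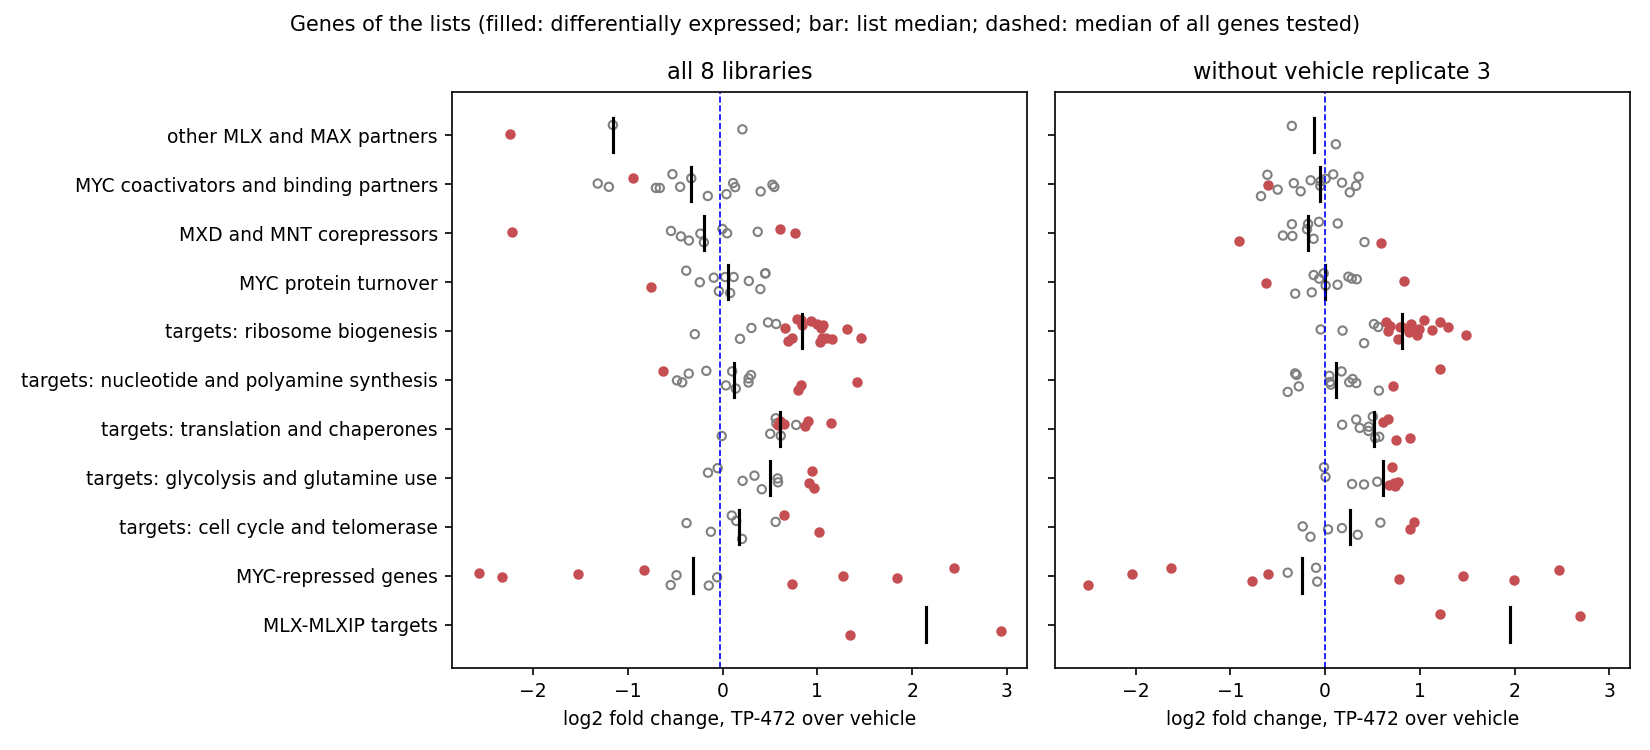
Each circle is the edgeR log2 fold change of a listed gene, TP-472 over vehicle, filled where it was differentially expressed, with the list median as a bar and the median of all genes tested as a dashed line. The left panel has all 8 libraries and the right panel leaves out vehicle replicate 3; the genes of ribosome biogenesis lie mostly to the right of the dashed line in both, and the genes repressed by MYC lie on both sides.

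Of the cofactors of the network, 15 coactivators and binding partners of MYC were tested, of which none was higher and 1 was lower in either fit (beside 26.9% of all genes called with 8 libraries and 25% with 7), with a median of −0.33, and −0.05 without vehicle replicate 3. TRRAP, a scaffold of histone acetyltransferase complexes, was at 269.6, 146, 395 and 157 CPM in vehicle and at 127, 107, 106 and 164 CPM in TP-472. The groups overlapped, and vehicle replicates 1 and 3 were both high. TRRAP fell by 0.94 (adjusted p = 0.0446 in edgeR) with all libraries and by 0.61 (adjusted p = 0.0409) without vehicle replicate 3. The call was lost without vehicle replicate 1 (−0.90, adjusted p = 0.0989) and without any of the TP-472 libraries (−1.09 to −0.86, adjusted p of 0.0558 to 0.121). In the 7-library fit TRRAP was called under 10 of 21 alternatives. Leaving out vehicle replicate 1 there as well gave −0.28 (adjusted p = 0.152 in edgeR).

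Of 11 corepressors that MXD proteins and MNT recruit, 2 were higher and 1 was lower, beside the same 26.9% of all genes, and without vehicle replicate 3 these counts were 1 and 1. SAP18, a subunit of the SIN3 complex, was at 44.2, 56.4, 30.3 and 58.8 CPM in vehicle and at 75.8, 86.0, 87.3 and 72.3 CPM in TP-472 (log2 fold change 0.76, adjusted p = 0.0177 in edgeR, and 0.59 without vehicle replicate 3). HDAC2, a histone deacetylase, was higher by 0.60 (adjusted p = 0.0402) and by 0.42 without vehicle replicate 3, under the 1.5-fold limit. SAP18 lost its call without vehicle replicate 1 or TP-472 replicate 2 or 3 (0.72 to 0.73), and HDAC2 without any library other than vehicle replicates 2 and 4 (0.42 to 0.63).

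Of 13 genes that control the turnover of MYC protein, 12 were tested, and 1 was lower and none higher, beside 26.9% of all genes called in either direction. HUWE1, a ubiquitin ligase with MYC among its substrates, was at 682, 473, 769 and 484 CPM in vehicle and at 358, 323, 315 and 424 CPM in TP-472. It fell by 0.76 (adjusted p = 0.0137 in edgeR), and by 0.63 without vehicle replicate 3, with no overlap between groups. The call was lost without TP-472 replicate 2 (−0.71, adjusted p = 0.0513) or 3 (−0.70, adjusted p = 0.0522). Without vehicle replicate 3, USP36, a nucleolar deubiquitinase of MYC, was also called, at 0.83 (adjusted p = 0.000482, named after its value had been seen).

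The genes whose levels followed each network gene most closely over the 8 libraries were ranked by Pearson correlation of log2 CPM, as a description without a test. For MYC they were NF2 (0.994), GRB2 (0.991) and STK10 (0.991), for MXD3 SHC1 (0.997), PARP10 (0.997) and IRF7 (0.996), and for MXD4 LGALS3BP, ATG9A and MAP3K10. For MNT they were POLR2J3, RAP1GAP2 and TLE3, for MAX DCAF4, HOXB9 and MLKL, and for MLX LCMT2, ASTE1 and HOXB7. For MXD1 they were HMGXB3, YY1AP1 and STEAP3, for MXI1 LINC02035, MAGI3 and EEF1AKMT3, and for MYCL GABRQ, STN1 and ZNF202. All points shared the same libraries, among them vehicle replicate 3. Without it the leading genes of MYC were NXF1, FAM13B and ZNF551 and those of MXD3 BTN2A2, TYMP and SPARC, none of them the same, whereas MNT kept its 3.

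The identity of the cells was checked with markers. Smooth muscle markers were present (CALD1 at a mean of 196 CPM, and ACTA2 at 104.7 to 177 CPM), but MYH11, a defining gene of mature smooth muscle, was at 0 in 3 vehicle libraries and at no more than 0.264 CPM elsewhere. The summed level of the 7 smooth muscle markers was 438, 476, 520.4 and 479 CPM in vehicle and 379, 377, 373 and 369.9 CPM in TP-472, and 2 of the 6 tested (DES and TAGLN) were lower, beside 14.9% of all genes. DES was above 1 CPM in the vehicle libraries alone, and so was tested only through that group. Without vehicle replicate 3 it had no test, and of 5 markers tested ACTA2 (−0.60) and TAGLN (−0.65) were lower, beside 13.1% of all genes. Counts this small are not read as a change of the list. Endothelial markers summed to 0.055 to 0.144 CPM in vehicle and to 0.414 to 0.581 CPM in TP-472, and all were under the filter on low counts. Of 5 immune markers CD68 led at a mean of 8.98 CPM, and PTPRC was at or near 0 and CD3E at 0 in all libraries. CD68 was higher in TP-472 with no overlap, but under the 1.5-fold limit (log2 fold change 0.47, adjusted p = 0.0307 in edgeR). Epithelial markers summed to 17.5 to 26.8 CPM, led by KRT18, with 1 gene higher and 1 lower of 3 tested. Of the melanocytic markers PMEL led at a mean of 1.28 CPM and TYR was at 0. The part of the markers that differed between groups in the results above was not tested.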

How the data were processed

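Per the labels and the paper's methods, RNA from SK-UT-1 cells was made into strand-specific libraries. The authors mapped reads to the human transcriptome (GRCh38) with Salmon 1.4.0 and summed them to genes with tximport and GENCODE 34. The deposited values are estimated counts, neither normalized nor filtered. The vehicle columns carry a misspelt form of control and were matched to the vehicle titles by replicate number.

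Estimated counts were rounded. Genes over 1 CPM in at least 4 libraries were kept, scaled by TMM and compared between groups in edgeR 4.0.16 under R 4.3.3 (glmQLFit and glmQLFTest), with Benjamini-Hochberg adjustment over all genes. CPM are TMM-scaled. The second fit left out vehicle replicate 3. MYCN, under the filter, and MYC were also compared by an exact two-sided permutation test of CPM (smallest p 0.0286 for 4 against 4 libraries). GC content, available for 99.3% of tested genes, and positions came from GENCODE 29 on GRCh38, and promoter windows from RefSeq.

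The network genes and gene lists were chosen with earlier results of these data known. The text names all network genes, all genes of lists of 3 or fewer, and from longer lists the 2 called genes with the largest rise and fall with a mean of at least 5 CPM, plus those stated to be named later. For likeness, the 3 genes of highest correlation with a mean of at least 5 CPM are given. Log2 CPM used a prior count of 2. Alternatives were DESeq2 1.42.0, voom of limma 3.58.1 with and without quality weights, other scalings, filters and thresholds, unrounded counts, replicate number as a block, removal of the GC trend, and each library left out. Values of a few listed genes were left out of the text but enter the counts of their lists. The calculations were tested on simulated data. No pair of libraries was a copy (lowest mean chi-square 11.2). Library totals leave little counting error at the levels of the tested network genes. Counting error is larger for genes with few counts, such as MYCN, MLXIPL, DES, CASC11 and MYCL-AS1.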

Additional observations from a re-analysis of the deposited data

Results flagged for a closer look

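For the network genes, the 23 other named genes, the ratio of the sums and the total counts, each group of 4 libraries was searched for a library whose gap to its nearest neighbour exceeded Dixon's 95% critical value for the gap's share of the group's range. Chance marks about 1 in 20 such groups, and 10 of 70 were marked, 7 of them by vehicle replicate 3. That library was the highest of the vehicle group for MYC (282 CPM), MXD3 (66.5 CPM), MXD4 (148 CPM), MNT (27.5 CPM) and MLXIPL (5.41 CPM). It was the lowest for MGA (129 CPM) and ARRDC4 (1.68 CPM). Results that rest on this library are given above with and without it. Vehicle replicate 1 was far below the others for RRP9 (21.1 CPM). TP-472 replicate 4 was far below the others for MYCN (0.0528 CPM, which is 2 counts) and far above them for ARRDC4 (33.5 CPM).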

How the results depend on the processing

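Among the comparisons, 96 alternative values kept their size and 19 moved, and among single genes, lists and other values 1740 kept direction and call, 116 lost a call, 8 gained one, 142 moved and 9 reversed. With all 8 libraries, the count of differentially expressed genes (3789) became 1123 when tested against 1.5-fold and 1207 at an adjusted p under 0.01 and over 2-fold, and ran from 2486 (without TP-472 replicate 3) to 4110 (without vehicle replicate 2) with a library left out. The count of network genes (2) became 1, MXD3, in the test against 1.5-fold, at the stricter threshold and with the GC trend removed, and ran from 1 to 2 with a library left out. Without vehicle replicate 3 the count of all genes (3474) became 1591 against 1.5-fold, 5267 with no filter, 2219 with a filter at 5 CPM, 7918 with no limit on the fold change and 1180 at the stricter threshold. That of network genes (2) became 1 against 1.5-fold, 6 with no limit on the fold change and 1 at the stricter threshold. Stricter thresholds give fewer genes by construction.

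The sign of MNT reversed with 8 libraries under quality weights (0.089), and ran from −0.79 to 0.016 with a library left out, positive only without vehicle replicate 3. It also reversed with 7 libraries under no filter (−0.0079), under edgeR's filterByExpr (−0.00042) and with further libraries left out (−0.052 to 0.14). MLXIP, with 7 libraries, ran from −0.54 to 0.068 with further libraries left out, and was positive without vehicle replicate 1. The cause was not tested for either gene.

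The labels did not say whether replicate numbers pair the libraries. The correlations of deviations between same-numbered libraries were −0.06, 0.12, −0.17 and −0.18 for numbers 1 to 4. With so few libraries, and vehicle replicate 3 among them, these values cannot decide the question. With replicate number as a block, 3055 genes were called with 8 libraries and 3360 with 7, and the network genes called were 1 (MXD3) and 2. With 8 libraries MYC was then at 0.37 (adjusted p = 0.284 in edgeR).

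Depth limits MYCN alone among the network genes. Small groups limit every permutation test, and 1 library decides the calls of MYC and the size of MXD4 and MNT.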

Other observations

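Of the noncoding genes annotated beside the network genes, 5 were found in the table and 1, PVT1, was tested, with levels of 64.6, 42.5, 68.8 and 44.6 CPM in vehicle and 51.8, 53.8, 48.8 and 63.4 CPM in TP-472 (log2 fold change −0.02, adjusted p = 0.948 in edgeR, and 0.10 without vehicle replicate 3). MYCL-AS1, antisense to MYCL, was at 0, 0.0862, 0 and 0.112 CPM in vehicle and at 0.776, 0.366, 0.277 and 0.608 CPM in TP-472. CASC11 was at 0.0554, 0.0287, 0.0579 and 0.0562 CPM in vehicle and at 0.285, 0.536, 0.527 and 0.687 CPM in TP-472. For both, all TP-472 libraries were above all vehicle libraries, but both were under the filter on low counts, had no test and were chosen after their values had been seen. MYCNOS and MYCNUT were at or near 0.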
